A study of Mus musculus with 12 samples.

Results

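AHNAK, the annexins and the S100 proteins form a set of membrane-associated proteins, and 10 of their genes were examined here, out of 25860 genes listed in the RNA-seq table. The members were chosen by symbol, with earlier results of these data known. They are *Ahnak*, *Anxa1*, *Anxa2*, *Anxa5*, *Anxa6*, *S100a4*, *S100a6*, *S100a10*, *S100a11* and *S100a13*. Chromatin accessibility was taken from every listed ATAC-seq peak annotated to a member, 15 of 23932 peaks.

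Annexins bind acidic phospholipids of the inner membrane face when calcium rises, and S100 proteins are small calcium-sensing dimers, several of which dock on the N-terminus of an annexin. S100A10 is the exception that does not bind calcium; with annexin A2 it forms a heterotetramer that anchors the giant scaffold AHNAK beneath the plasma membrane. In T cells, AHNAK is known to be needed for normal calcium entry after T cell receptor stimulation, and several annexin and S100 genes are higher in effector and memory T cells than in naive cells.

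The study compared CD8+ progenitor T (T_prog_) cells from the pancreatic lymph node (pLN) between *NOD-TCR 8.3 UTX TCD* mice and *NOD-TCR 8.3 WT* controls. Each genotype had 3 RNA-seq and 3 ATAC-seq libraries. All mice were female, on the nonobese diabetic (NOD) background, and carried the transgenic 8.3 T cell receptor, which recognizes the β cell antigen IGRP. In *UTX TCD* mice a floxed *Kdm6a* gene, which encodes the histone demethylase UTX, was deleted by Cre under the Lck promoter, which is active in T cells from their development in the thymus; WT controls lacked Cre. The age of the mice used for these assays is not given in the sources used here, and the labels do not tie a library to an animal; the study lists 3 mice of each genotype, as biological replicates, for ATAC-seq and a group size of 3 for RNA-seq. The RNA-seq p-values measure the spread between these libraries. The labels describe the sort as Ly108 without CXCR6, whereas the study's methods give Ly108+CD39-.

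RNA-seq depth was 146456724, 144503203 and 193568919 counted reads in WT replicates 1 to 3, and 61512402, 175462433 and 187275082 in *UTX TCD* replicates 1 to 3. Values below are normalized counts, the reads of a gene divided by a size factor per library, and replicates are given in that order. Fold changes are *UTX TCD* over WT on the scale log2(normalized count + 1), which understates changes of low genes. A gene was called at a Benjamini-Hochberg adjusted p under 0.05 in limma over all 14459 tested genes with an absolute log2 fold change over 0.5. For a single gene, 3 libraries against 3 allow no exact permutation p below 0.1. In sorted cells measured in bulk, fewer cells of a type and less RNA per cell cannot be told apart.

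*Kdm6a* itself, on chromosome X of GRCm38 from 18162575 to 18279936, had 28365, 28949 and 29172 normalized counts in WT, against 24159, 24792 and 24579 in *UTX TCD* cells. Every *UTX TCD* library lay below every WT library, with a log2 fold change of -0.23 (SE 0.04, limma adjusted p = 0.00114), which is short of the fold limit. These are counts over the whole gene and do not resolve the deleted exons.

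Of the 10 members, 7 fell in *UTX TCD* cells and 0 rose. Over all tested genes 17.6% were called, with 7.05% lower and 10.5% higher. All 10 members passed the filter of a mean of at least 10, although 3 of them had a mean under 50, and *S100a4* averaged less than 10 in *UTX TCD* cells alone. The median log2 fold change of the members was -1.03, against -0.000181 over all tested genes. In 8 of 10 members every *UTX TCD* library was below every WT library, compared with 26.1% of tested genes, and in 0 members was every *UTX TCD* library above, compared with 25.8% of tested genes. Because the members were chosen with earlier results of these data known, these contrasts with all tested genes are descriptions without a test. The members together made up 0.171%, 0.154% and 0.181% of all normalized counts in WT, against 0.0814%, 0.0832% and 0.0702% in *UTX TCD* libraries. These shares are not scaled for gene length. They follow mainly *Anxa6*, *Ahnak* and *S100a10*, with WT means of 117248, 80879 and 31374, whereas *Anxa5*, the next highest, had 9027.

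**Figure D1:**
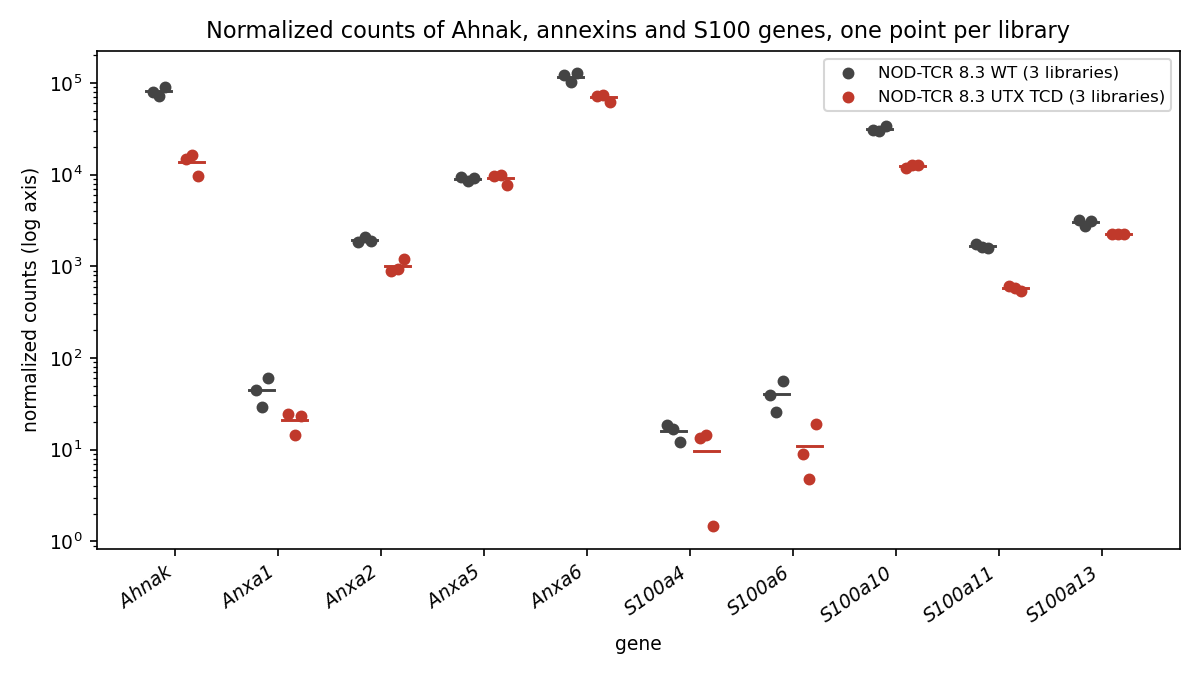
Normalized counts on a log axis for each of the 10 members, with a point per library and a bar at the mean of 3 libraries for WT (dark) and UTX TCD (red). The groups are apart for 8 members and overlap for *Anxa5* and *S100a4*.

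The scaffold itself showed the steepest fall. *Ahnak* (ENSMUSG00000069833, chromosome 19 of GRCm38 from 8989284 to 9076914, plus strand) had 80121, 72570 and 89944 normalized counts in WT, against 14785, 16411 and 9738 in *UTX TCD* cells. The groups were far apart, with 16.9% of the WT mean left and *UTX TCD* replicate 3 lowest. The log2 fold change was -2.60 (SE 0.17, limma adjusted p = 7.95e-06). It rests on 6573 to 117939 reads per library, and all 16 alternative settings that re-estimated it kept the call.

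Transcripts of both subunits of the heterotetramer that holds AHNAK at the membrane fell. *S100a10* (ENSMUSG00000041959, chromosome 3 from 93555080 to 93564643, plus strand) had 30607, 29892 and 33622 normalized counts in WT, against 11683, 12832 and 12779 in *UTX TCD* cells. The libraries of each genotype were close together, and the log2 fold change of -1.34 (SE 0.06, limma adjusted p = 6.3e-07) was large beside that spread. *Anxa2* (ENSMUSG00000032231, chromosome 9 from 69453620 to 69491795, plus strand) had 1825, 2081 and 1878 normalized counts in WT, against 886, 930 and 1208 in *UTX TCD* cells. The groups did not overlap, and the log2 fold change was -0.95 (SE 0.12, limma adjusted p = 0.000295). Both were called under the 16 alternative settings that re-estimated them, but *Anxa2* lost its call at a fold limit of 1. Per kilobase of exon, *S100a10* exceeded *Anxa2* by 51.6, 44.2 and 55.1 times in WT and by 40.6, 42.5 and 32.6 times in *UTX TCD* libraries, so the subunit without calcium binding was the more abundant transcript in each library. *Anxa2* overlaps the antisense gene *Gm16144*, and without a stated strand setting reads from both cannot be told apart.

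Among the other annexins of the set, *Anxa6*, the annexin with a duplicated core that links membranes to actin and cholesterol transport, was the most abundant. *Anxa6* (ENSMUSG00000018340, chromosome 11 from 54979108 to 55033445, minus strand) had 121732, 102802 and 127210 normalized counts in WT, against 72644, 74009 and 62616 in *UTX TCD* cells. The groups were apart, at a log2 fold change of -0.75 (SE 0.09, limma adjusted p = 0.000227), called under the 16 alternative settings that re-estimated it and lost at a fold limit of 1. *Anxa5* (ENSMUSG00000027712, chromosome 3 from 36448923 to 36475894, minus strand), which binds exposed phosphatidylserine, had 9329, 8555 and 9196 normalized counts in WT, against 9636, 9894 and 7731 in *UTX TCD* cells. The groups overlapped, with *UTX TCD* replicate 3 the lowest of all 6 libraries, and the log2 fold change was 0.00 (SE 0.09, limma adjusted p = 0.987). Its sign changed between settings, from -0.06 to 0.11.

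*Anxa1*, a glucocorticoid-induced annexin that signals through formyl peptide receptors, was scarce. It (ENSMUSG00000024659, chromosome 19 from 20373428 to 20390944, minus strand) had 44.6, 29.6 and 60.2 normalized counts in WT, against 24.7, 14.4 and 23.6 in *UTX TCD* cells. The groups did not overlap, but WT replicate 2 was close to *UTX TCD* replicate 1, and the log2 fold change of -1.04 (SE 0.36, limma adjusted p = 0.0439) only just passed. The call was kept in 6 of 15 alternative settings, with adjusted p between 0.0241 and 0.158. It was lost with no filter (0.073), with limma without trend (0.0574), with libraries scaled to the same sum (0.0541), with DESeq2 on the recovered reads (0.0549) and without WT replicate 1 (0.12), WT replicate 3 (0.158), *UTX TCD* replicate 1 (0.051), *UTX TCD* replicate 2 (0.143) or *UTX TCD* replicate 3 (0.054). *Anxa1* also overlaps the noncoding gene *1500015L24Rik* on the other strand.

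Of the 5 S100 members, 3 were called and all of these fell. *S100a11* (ENSMUSG00000027907, chromosome 3 from 93520488 to 93526287, plus strand), a partner of annexin A1 in membrane contacts, had 1773, 1636 and 1572 normalized counts in WT, against 616, 577 and 545 in *UTX TCD* cells. Each genotype was tight, and 34.9% of the WT mean was left, at a log2 fold change of -1.52 (SE 0.09, limma adjusted p = 3.71e-06) that the 16 alternative settings that re-estimated it all called. The annotation holds a processed copy, *S100a11-ps*, on chromosome 12 from 73961142 to 73961447, and reads that match both are uncertain.

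*S100a6*, also named calcyclin, lies in the other S100 cluster of chromosome 3 (ENSMUSG00000001025, 90612882 to 90624181, plus strand). It had 39.6, 25.7 and 56.4 normalized counts in WT, against 9.0, 4.8 and 19.2 in *UTX TCD* cells, which rest on 4 to 74 reads per library. The groups were apart, and the log2 fold change was -1.91 (SE 0.50, limma adjusted p = 0.0149). The adjusted p ranged from 0.00503 to 0.058 over the settings and missed the threshold without WT replicate 3 (0.058). *S100a4*, which binds the heavy chain of non-muscle myosin IIA, is its near neighbour (ENSMUSG00000001020, 90603771 to 90606045, plus strand). It had 18.8, 16.8 and 12.2 normalized counts in WT, against 13.5, 14.4 and 1.47 in *UTX TCD* cells, from 2 to 19 reads. The groups overlapped and no difference was detectable at this depth (log2 fold change -1.02, SE 0.69, limma adjusted p = 0.27). The estimate rests on *UTX TCD* replicate 3, the lowest library: without it the log2 fold change was -0.16, and it ranged from -1.48 to -0.16 over the settings. *S100a4* also overlaps the same-strand gene *Gm42674*. *S100a13* (ENSMUSG00000042312, 90514435 to 90524581, plus strand), which takes part in the release of cytokines that lack a signal peptide, had 3225, 2769 and 3149 normalized counts in WT, against 2270, 2233 and 2240 in *UTX TCD* cells. All 3 *UTX TCD* libraries were below all WT libraries (log2 fold change -0.44, SE 0.07, limma adjusted p = 0.00107), but the fold limit was not reached; without WT replicate 2 it was, at -0.50.

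**Figure D2:**
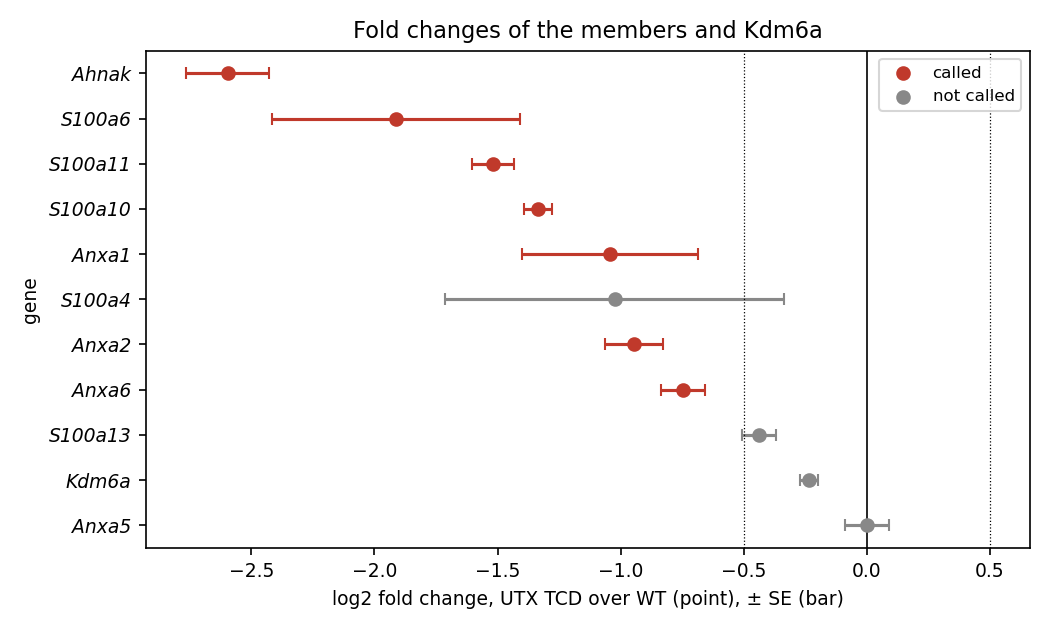
Log2 fold change of each member and of *Kdm6a*, *UTX TCD* over WT, as a point with its SE as a bar; red marks called genes, and dotted lines mark the fold limits. *Ahnak* lies farthest to the left at -2.60, and *Anxa5* sits at 0.00 (its sign flips when single libraries are left out).

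Levels of different genes were compared per kilobase of merged exons. In WT cells *Anxa6* was highest, at 40020 ± 4371 normalized counts per kilobase (SD, n = 3), followed by *S100a10* at 25890 ± 1633. *Anxa5* (5080 ± 233), *S100a13* (4263 ± 342), *Ahnak* (4057 ± 437) and *S100a11* (3249 ± 201) came next, and *S100a13* and *Ahnak* did not differ beyond their spread. *Anxa2* stood at 517 ± 36.3, and *S100a6* (29.7 ± 11.3), *S100a4* (27.3 ± 5.81) and *Anxa1* (15.4 ± 5.26) were lowest, with *S100a6* and *S100a4* within each other's spread. In *UTX TCD* cells *Ahnak* was at 684 ± 174 per kilobase, below *S100a11* at 1133 ± 70.2, whereas in WT it had been above. With coding length in place of exon length, *Ahnak* was below *S100a11* in WT too (4767 against 5647), and *S100a10* moved above *Anxa6* in WT (107800 against 58070), since most of its exons are noncoding.

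The 5 tested genes outside the set whose values were most like those of *Ahnak* over the 6 libraries were *Cdc42se2* (Pearson r = 0.9995), *Cd177* (r = 0.99883), *G430095P16Rik* (r = 0.99876), *Hpcal1* (r = 0.99875) and *Nrg2* (r = 0.99863). All 5 fell in *UTX TCD* cells. The 6 points span both genotypes, and 155 of 14449 genes had r over 0.99. Of these, *G430095P16Rik* fell from 349 ± 66.5 to 5.66 ± 3.05 normalized counts (SD, n = 3), and *Nrg2*, a neuregulin, from 1931 ± 320 to 220 ± 76.6.

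The 15 peaks annotated to members covered 7 of the 10 genes, and all 15 had a lower concentration in *UTX TCD* cells; over all 23932 listed peaks, 31.2% were lower. Concentrations are the authors' log2 mean of normalized ATAC-seq reads per genotype, so they carry no error or test here, and each listed peak has an FDR under 0.05 in the authors' comparison. The median difference, *UTX TCD* minus WT, was -0.503 at the members, against 0.493 over all listed peaks and -0.758 over all listed lower peaks. No fold limit was applied to the peaks counted here. The study also required an absolute log2 fold change over 0.5 for a changed region, and 8 of the 15 differed by more than that. By annotation 2 of the 15 were promoter peaks, 5 were intronic and 8 intergenic. *Anxa1*, *Anxa5* and *S100a13* had 0 peaks under their names, which says only that no peak so named passed that FDR.

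*S100a10* had 4 peaks under its name. The peak at chr3:93562340-93562740, in intron 2 of 2, went from 8.22 in WT to 6.66 in *UTX TCD* cells, a difference of -1.56 that was the largest at any member. An upstream peak 6359 bp before the start site differed by -0.341, and peaks 38597 and 42273 bp beyond it differed by -0.76 and -1.17. The neighbouring *S100a11* had a promoter peak at chr3:93520358-93520758 that differed by -0.503, and an upstream peak that differed by -0.37.

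*Ahnak* had 3 peaks. The peak 8315 bp upstream, at chr19:8980769-8981169, went from 8.76 to 7.36 (difference -1.4), and the pair in intron 1 of 5 differed by -0.352 and -0.258. *Anxa6* also had 3, with -0.998 in intron 1 of 24 at chr11:55025939-55026339, -0.31 at the promoter and -0.306 at 6327 bp upstream. *Anxa2* had an intergenic peak 10844 bp upstream (-0.64), *S100a4* a peak in intron 2 of 2 (-0.572) and *S100a6* a peak 2722 bp past its start site (-0.325). *S100a4* thus had a less accessible listed peak without a detectable difference in transcript, and *Anxa1* a called transcript without a listed peak.

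Peak names follow the nearest start site, which matters for a gene as long as *Ahnak*. When every listed peak inside a member's gene body was counted under any name, a choice made after seeing the data, there were again 15 peaks, of which 11 were lower and 4 higher. Of these, 7 carried another gene's name. In the *Ahnak* body 5 peaks were named for *Scgb1a1*: those at chr19:9044321-9044721 (-0.741), chr19:9053050-9053450 (-1.33) and chr19:9074995-9075395 (-1.33) were lower, and those at chr19:9055782-9056182 (0.321) and chr19:9066064-9066464 (0.344) were higher. A peak in intron 8 of 12 of *Anxa2*, named for *Mir3109*, was higher by 0.899, and a peak in intron 3 of 3 of *S100a13*, named for *S100a14*, was higher by 1.02. Lower accessibility at all peaks therefore holds for the peaks by name and not by position.

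**Figure D3:**
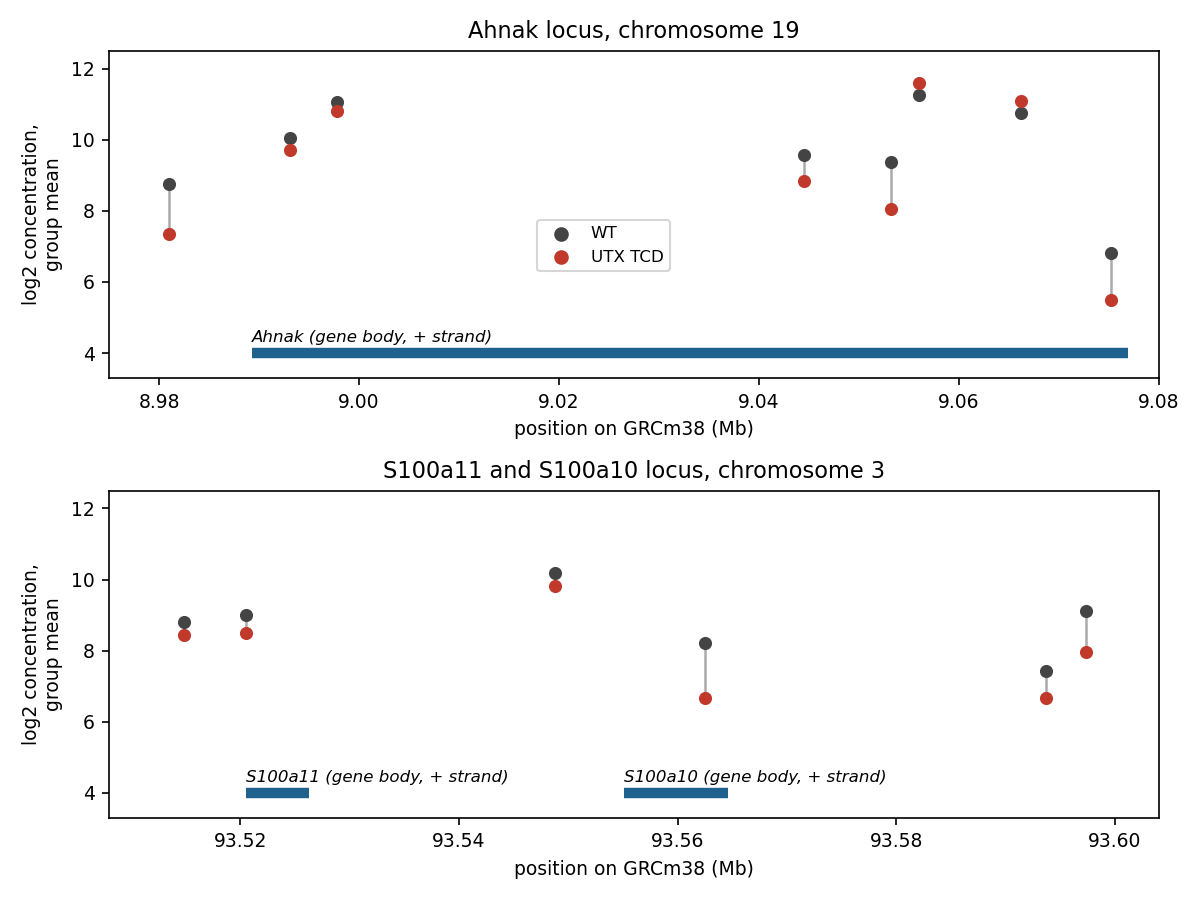
Group mean log2 concentration of each listed peak named for or lying inside the genes (WT dark, *UTX TCD* red, joined by a line) against position on GRCm38 in megabases, with gene bodies as blue bars. At *Ahnak* 6 peaks are lower and 2 higher in *UTX TCD* cells, and at *S100a11* and *S100a10* all 6 are lower.

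Short motifs were counted on both strands in the 15 member peaks and in all 23907 listed peaks of the same width of 401 bp on the assembled chromosomes. The AP-1 letters TGANTCA were in 6 of 15 member peaks (40%) and in 12.8% of all listed peaks, or 15.5% of those lower in *UTX TCD* cells. The ETS letters AGGAAG were in 13 of 15 (86.7%, against 56.5% of all and 60.9% of lower peaks), the RUNX letters TGTGGT in 5 of 15 (33.3%, against 39.7% and 48.8%), the TCF1/LEF1 letters CTTTGA in 2 of 15 (13.3%, against 30.6% and 32%) and the STAT letters TTCNNNGAA in 2 of 15 (13.3%, against 11.9% and 12%). These shares are descriptions without a test, and a match of letters is not a bound site.

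The middle 200 bases of the peaks with the largest difference at *S100a10* and *Ahnak* are shown, since these are the sites where accessibility moved most beside the called transcripts. Both are from the RefSeq GRCm38 genome, plus strand, with capitals for motif matches. The *S100a10* stretch is chr3:93562440-93562639 and holds the RUNX letters on the reverse strand and the ETS letters. The *Ahnak* stretch is chr19:8980869-8981068 and holds the AP-1 letters, which share a base with reverse-strand RUNX letters, and reverse-strand ETS letters.
*S100a10* intron 2 peak: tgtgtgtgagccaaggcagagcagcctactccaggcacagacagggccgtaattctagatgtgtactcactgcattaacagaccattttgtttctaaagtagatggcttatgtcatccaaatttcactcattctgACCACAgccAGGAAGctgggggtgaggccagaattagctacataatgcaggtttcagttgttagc
*Ahnak* upstream peak: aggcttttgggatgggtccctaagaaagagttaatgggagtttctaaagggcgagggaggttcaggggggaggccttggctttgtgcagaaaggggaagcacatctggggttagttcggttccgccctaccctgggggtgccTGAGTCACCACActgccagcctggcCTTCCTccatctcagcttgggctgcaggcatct

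Promoter sequences from RefSeq (GRCm38.p6, 300 bases around the start site) matched 8 of 10 members; *Anxa6* and *S100a10* had no entry. The AP-1 letters were in 2 of these 8, *S100a11* and *Anxa2*, and in 7.81% of all 32851 promoters. The ETS letters were in 1 of 8 (35.4% of all promoters), the RUNX letters in 1 (16.8%), the TCF1/LEF1 letters in 1 (16%) and the STAT letters in 0 (8.3%). *S100a11* is shown because it is the only one of these 8 promoters that overlaps a listed peak. Its 250 bases before the start site, chr3:93520246-93520495 on the plus strand, hold the AP-1 letters at 2 places and the TCF1/LEF1 letters at 1, in capitals.
*S100a11* promoter: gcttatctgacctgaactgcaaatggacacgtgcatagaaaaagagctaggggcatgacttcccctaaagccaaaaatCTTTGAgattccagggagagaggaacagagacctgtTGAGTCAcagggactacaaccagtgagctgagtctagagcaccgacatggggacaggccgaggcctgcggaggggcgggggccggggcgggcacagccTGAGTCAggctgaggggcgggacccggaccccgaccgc

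Among other annexins, 0 of 4 tested genes of 8 listed were called in limma (median log2 fold change 0.09), although *Anxa7* had an adjusted p of 0.0472 at a log2 fold change of -0.12. Among other S100 genes, 0 of 3 tested of 13 were called (median -0.57), and *S100a5*, *S100a7a*, *S100a8* and *S100a9* had 0 reads in all 6 libraries. Of S100 binders, 7 of 10 were tested (median -0.05). *Sugt1*, a co-chaperone, fell from 16720 ± 267 to 11133 ± 384 normalized counts (SD, n = 3), and *Ager*, the receptor for advanced glycation end products, rose from 884 ± 37.6 to 1479 ± 331. *Myh9*, the myosin that S100A4 binds, was the most abundant of these and had a log2 fold change of -0.22.

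Of the genes around annexin A1, 2 of 5 were tested. *Abca1*, a lipid transporter implicated in annexin A1 release, rose from 5902 ± 547 to 9765 ± 316 (SD, n = 3; log2 fold change 0.73, limma adjusted p = 5.26e-05), while the receptors *Fpr1*, *Fpr2* and *Fpr3* had at most 3 reads in any library.

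The plasminogen system, which the annexin A2 heterotetramer brings to the cell surface, had 5 of 8 genes tested, with 2 lower and 1 higher (median 0.28). *Plaur*, the urokinase receptor, had 9091, 7685 and 8945 normalized counts in WT against 2054, 2014 and 1818 in the *UTX TCD* libraries, at a log2 fold change of -2.13 (SE 0.08, limma adjusted p = 2.24e-07). *Plat*, tissue plasminogen activator, fell from 91.7 ± 10.2 to 15.9 ± 5.67, and *Serpine2*, an inhibitor of plasminogen activators, rose from 55.7 ± 11.6 to 349 ± 39.1 (SD, n = 3 each). *Plg* itself had at most 3 reads in any library.

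Among AHNAK relatives, calpains and voltage-gated calcium channel subunits, 14 of 17 were tested and 1 was called (median -0.10). This was *Prx*, a PDZ-domain relative of AHNAK, which rose from 263 ± 40.5 to 503 ± 23.9 normalized counts (SD, n = 3; log2 fold change 0.94, limma adjusted p = 0.000688). *Ahnak2* was too low to test. Of 15 store-operated calcium entry and calmodulin genes, all tested, 1 was called, and it fell (median -0.09). Short of the fold limit were *Itpr2*, at a log2 fold change of 0.4993 (limma adjusted p = 7.75e-05), and *Orai2*, at -0.45 (limma adjusted p = 0.00832). The called gene, *Atp2b4*, a plasma membrane calcium pump, went from 8321 ± 267 to 5376 ± 512. Of 14 cortical actin and membrane linker genes, all tested, 5 fell and 0 rose (median -0.28). *Lgals1*, galectin-1, went from 10429 ± 1688 to 789 ± 33.8 normalized counts (log2 fold change -3.71, limma adjusted p = 6.71e-08), and *Vim*, *Crip1*, *Tagln2* and *Flna* had log2 fold changes of -0.75, -0.78, -0.71 and -0.61.

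The T cell, CD8 and progenitor markers were high in every library. The T cell and CD8 list held 0 called genes of 7, and *Cd8a*, its most abundant gene, ranged from 270000 to 313000 normalized counts. The progenitor list held 0 called of 5, led by *Tcf7*. Its gene *Il7r* was uneven in WT, at 38080, 79130 and 37110 normalized counts, against 40510, 39890 and 38040 in *UTX TCD* cells. In the sort-gate list *Slamf6*, which encodes Ly108, was the most abundant, and *Entpd1*, which encodes CD39, had 4.42 to 29.6 normalized counts. *Cxcr6* transcript was not absent: it had 12760, 9619 and 13720 in WT against 5286, 5994 and 5695 in the *UTX TCD* libraries (log2 fold change -1.07, limma adjusted p = 0.000131).

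Some members are also abundant in myeloid cells, so markers of other cells were examined. In the monocyte and macrophage list 2 of 5 tested genes of 8 fell, *Cd163* (425, 196.5 and 375 in WT; 6.75, 11.2 and 4.42 in *UTX TCD*) and *Csf1r* (24.2 ± 4.53 to 6.07 ± 1.85). The sum of that list was 1211.5, 1013.9 and 999.8 in WT, against 1073, 814 and 998.8 in *UTX TCD* cells. *Cd68*, its most abundant gene, went the other way, from 632 ± 77.1 in WT to 857 ± 138 in *UTX TCD* cells (SD, n = 3). The log2 fold change of *Cd68* was 0.43 (limma adjusted p = 0.0377), short of the fold limit. *Cd68* made up most of each sum, so the sums do not track *Cd163* and *Csf1r*. *Cd14* was not tested. Of the neutrophil list 0 of 1 tested gene of 8 was called; *S100a8*, *S100a9* and *Elane* were at 0 in every library and the list summed to at most 38.2. In the B cell list *Cd79b*, the most abundant, fell from 2299 ± 320 to 583 ± 98.8 and *Ms4a1* rose from 11.4 ± 7.36 to 41.0 ± 28.1; the list summed to 2957, 2442 and 2805 in WT, against 1226, 1083 and 1008 in *UTX TCD* cells. In the CD4 and regulatory T cell list, where *Foxp3* was the most abundant, *Cd4* and *Zbtb7b* fell, and the sum was 518, 413 and 490 in WT, against 391, 382 and 369 in *UTX TCD* cells. The dendritic cell list had 1 of 3 tested genes higher (*H2-Ab1*, led by *Xcr1*), the stroma and endothelium list 1 of 4 (*Col1a2*, led by *Pecam1*) and the erythroid and platelet list 0 of 2. In the NK and γδ T cell list *Eomes* rose, and the other tested genes, *Trdc*, the most abundant, and *Klrb1c*, had log2 fold changes of -0.17 and -1.18 without a call (list median -0.17). The part of these differences in the members' values was not tested.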

How the data were processed

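RNA-seq and ATAC-seq of sorted CD8+ T_prog_ cells were analysed, with 3 libraries per genotype in each assay, grouped by the labels. Per the labels and the study's methods, the authors aligned RNA-seq reads to mm10 with HISAT2 2.2.1, obtained gene counts with featureCounts and scaled each library by its DESeq2 size factor; the deposited signal is this normalized count. Gene annotation and strand setting are not given in the sources used here. For ATAC-seq the authors trimmed with cutadapt, aligned with Bowtie2, removed duplicates with Picard, called peaks with MACS2, compared genotypes with DiffBind and annotated peaks with HOMER; a shift of reads for the transposase is not given. The deposited log2 concentration of a peak is the authors' mean per genotype. The authors' own fold changes, p-values and FDR were not used, except that all listed peaks have an FDR under 0.05.

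Genes averaging at least 10 normalized counts were tested on log2(normalized count + 1) with limma 3.58.1 in R 4.3.3 (lmFit, eBayes with trend), genotype as the only term, p-values adjusted over all tested genes. Each library's values were whole multiples of a step (100% whole within 0.1), so reads could be recovered; the steps of WT replicates 1 and 2, 0.991 and 0.987, lie close to 1; edgeR 4.0.16 on these reads called 2541 genes and DESeq2 1.42.0 called 2422. The limma step was tested on simulated data. Depth ranged from 61512402 to 193568919 reads, and limits from low reads cover counting error only. Gene positions are from GENCODE on GRCm38, the same assembly as mm10; motifs were searched with Python 3.11.15 and pysam 0.24.0.

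Named genes are the 10 members, *Kdm6a*, up to 6 called genes of each related list, the 5 genes most like *Ahnak* and the marker genes. *Anxa7*, *S100a5*, *S100a7a*, *Myh9*, *Ahnak2*, *Itpr2*, *Orai2*, *Plg* and the *Fpr* genes were named after their values were seen. The members and lists were chosen with earlier results of these data known. Alternatives covered pseudocount, filter, scaling, test, replicate block, fold limit, each library left out, peak limits and gene length.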

Additional observations from a re-analysis of the deposited data

How the results depend on the processing

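The count of called genes moved most with the fold limit: 5887 genes were called without it and 1253 at a limit of 1, against 2538 at 0.5, and the members called lower were then 8 and 5 against 7, with *Anxa2* and *Anxa6* lost at a limit of 1. Under all other settings 5 to 8 members were called lower and 0 higher. With libraries left out singly, 2164 to 2570 genes and 5 to 8 members were called. *Ahnak*, *Anxa2*, *Anxa6*, *S100a10* and *S100a11* were called under every setting that re-estimated them; a minimum mean of 50 left 7 members tested, of which 5 were called. The log2 fold change of *Anxa5* ranged from -0.064 to 0.11 with libraries left out singly, below 0 without WT replicate 2 (-0.036), *UTX TCD* replicate 1 (-0.045) or *UTX TCD* replicate 2 (-0.064); the cause was not tested. Scaling libraries to the same sum shifted the median of all genes to 0.06 and ended only the call of *Anxa1* among the members.

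Of the 15 less accessible peaks, 8 differed by over 0.5, the study's fold limit for a changed region, and 3 by over 1. Counting by gene body, added after seeing the data, gave 4 more accessible peaks in place of 0. Replicate numbers did not pair the libraries: same-numbered libraries correlated at r = 0.305, -0.2 and 0.0897, and a replicate block gave 2474 genes and 7 members. The cause of the lost calls of *Anxa1* and *S100a6* was not tested, and both rest on at most 79 reads in any library.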

Other observations

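Other listed peaks lie beside the S100 members in the chromosome 3 cluster that holds *S100a13*, *S100a4* and *S100a6*; they were chosen after their values were seen. A peak at the *S100a2* promoter, chr3:90589467-90589867, went from a log2 concentration of 8.83 in WT to 7.65 in *UTX TCD* cells, and a peak in *S100a3* at chr3:90586856-90587256 went from 11.54 to 11.25. A peak named for *S100a9*, 14542 bp upstream of it, went from 7.48 to 7.84. The transcripts of these genes were too low to test: *S100a3* averaged 6.32 normalized counts in WT and 1.51 in *UTX TCD* cells, *S100a2* 1.98 and 0.27, and *S100a9* had 0 reads in every library.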
